A study of Homo sapiens with 6 samples.

Results

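Adhesion and extracellular matrix genes were followed in RKO cells, an established human colorectal carcinoma line, after culture in fasting medium or control medium. The genes were chosen by a rule on names, with earlier results of these data known. They were rows of the deposited table whose symbol belonged to a family of matrix proteins or of receptors for matrix or for neighbouring cells. Families of the proteases and inhibitors that cut them were also taken. The families were collagens, laminins, integrins, cadherins, protocadherins, FAT and desmosomal cadherins, fibronectin, tenascins, fibrillins, fibulins, syndecans, glypicans, agrin, perlecan, ADAM and ADAMTS proteases, TIMP inhibitors, claudins, EPH receptors, semaphorins, plexins, LRP receptors, NOTCH receptors and JAG ligands. This gave 46 genes of 3511 in the table. The fasting medium held 1% fetal bovine serum and 1 g/L glucose (3 samples), and the control medium had 4.5 g/L glucose with 10% serum (3 samples). Both groups were wild type by their labels and were cultured for 48 h. Serum and glucose were lowered together, so their effects cannot be told apart here. All values come from cultured cells of this single line, without other cell types or a solid matrix named in the labels.

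Cells build a basement membrane from laminins, collagens and heparan sulfate proteoglycans, and grip it through integrins, whose cytoplasmic tails are tied to actin by adaptor proteins. Cadherins and protocadherins bind the same kind of molecule on the next cell, claudins seal the space between epithelial cells, and desmosomal plaques anchor keratin filaments. Semaphorins act through plexins, ephrins through EPH receptors and JAG ligands through NOTCH, so that these signals also pass by contact or over short distances. ADAM proteases release the outer parts of many such surface proteins.

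The table lists only genes that had passed the authors' own test on these 6 libraries, with a highest adjusted p of 0.04999, or 11.8% of the 29845 genes they tested. In all 46 adhesion and matrix genes the fasting and control libraries did not overlap, but this was so for 100% of the listed genes, so nothing about these families is read from it. The reference annotation (RefSeq) holds 341 protein-coding symbols that match the name rule, so most members of these families are not in the table and have no values here. Among those not listed were FN1, ITGB1, ITGA6, ITGA2, ITGAV, CDH1, COL4A1, COL4A2, HSPG2, ADAM10, EPHB4, NOTCH1, NOTCH2, JAG1, LRP6, LRP8, FAT1, CLDN1 and TIMP1. No desmoglein or desmocollin was listed.

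The libraries held 4187326 to 5071791 reads in the listed genes under fasting and 4017618 to 5602177 in control medium. Fasting replicate 3 stood apart from the other fasting libraries, and the difference followed transcript length. Across 2886 listed genes whose higher group averaged 100 normalized counts or more, its deviation from the other fasting libraries had a Spearman rho of -0.72 with the length of the longest transcript, as a description over genes of 1 library. Long transcripts were low in it. The adhesion and matrix genes were long, with a median of 4574 bases against 3365 bases for all listed genes, and their median deviation was -0.17 on the log2 scale against 0.04. Results are therefore given with all libraries, and without this one where it matters. Without it, 1762 of all 3511 listed genes passed as higher and 1747 as lower, so passing there does not set a gene apart. Of 10 colorectal epithelial markers, KRT18 was listed, at 2018, 1959 and 3402 normalized counts under fasting and 757, 656 and 755 in control medium. None of 11 fibroblast, 7 endothelial and 8 leukocyte markers was listed, so their levels are not known here. In bulk RNA, fewer cells of a kind and less RNA per cell cannot be told apart.

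Most of these genes were lower under fasting. By limma on log2(normalized count + 1), with Benjamini-Hochberg adjustment over all genes the authors tested and a threshold of 0.05, 32 fell (69.6%), 10 rose (21.7%) and 4 did not pass. Over all listed genes 44.6% fell and 49.7% rose by the same rule, 94.3% in all; the excess of falls among the adhesion and matrix genes was not tested. The median log2 fold change of the 46 genes was -0.86, and that of all listed genes was 0.53. The median of all listed genes was unstable, because rises and falls were nearly even in number. Over the 3423 listed genes whose higher group averaged at least 10 normalized counts it was -0.55, so it does not stand for a typical gene. A change of at least 2-fold was seen in 7 that were higher and 17 that were lower. Among all 3511 listed genes it was seen in 944 that were higher and 743 that were lower. When each library was scaled by the reads it held in these listed genes, the median of all listed genes shifted by -0.47. By edgeR, 7 of the 46 genes then passed as higher and 36 as lower, against 879 and 1734 of all listed genes. This is called scaling to total reads below, although reads of genes outside the table were not available. When the size factors were rebuilt as RLE factors from the listed genes, the shift was 0.20, with 10 higher and 25 lower. Of all listed genes, 1761 then passed as higher and 1174 as lower. No gene of the 46 changed direction in either scaling. Both shifts were smaller in size than the smallest change among these genes, -0.56 in SEMA7A, so this says little. One gene caught by the name rule, ITGB3BP, encodes a centromere protein and not an integrin, and without it 31 of 45 fell and 10 rose.

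**Figure D1:**
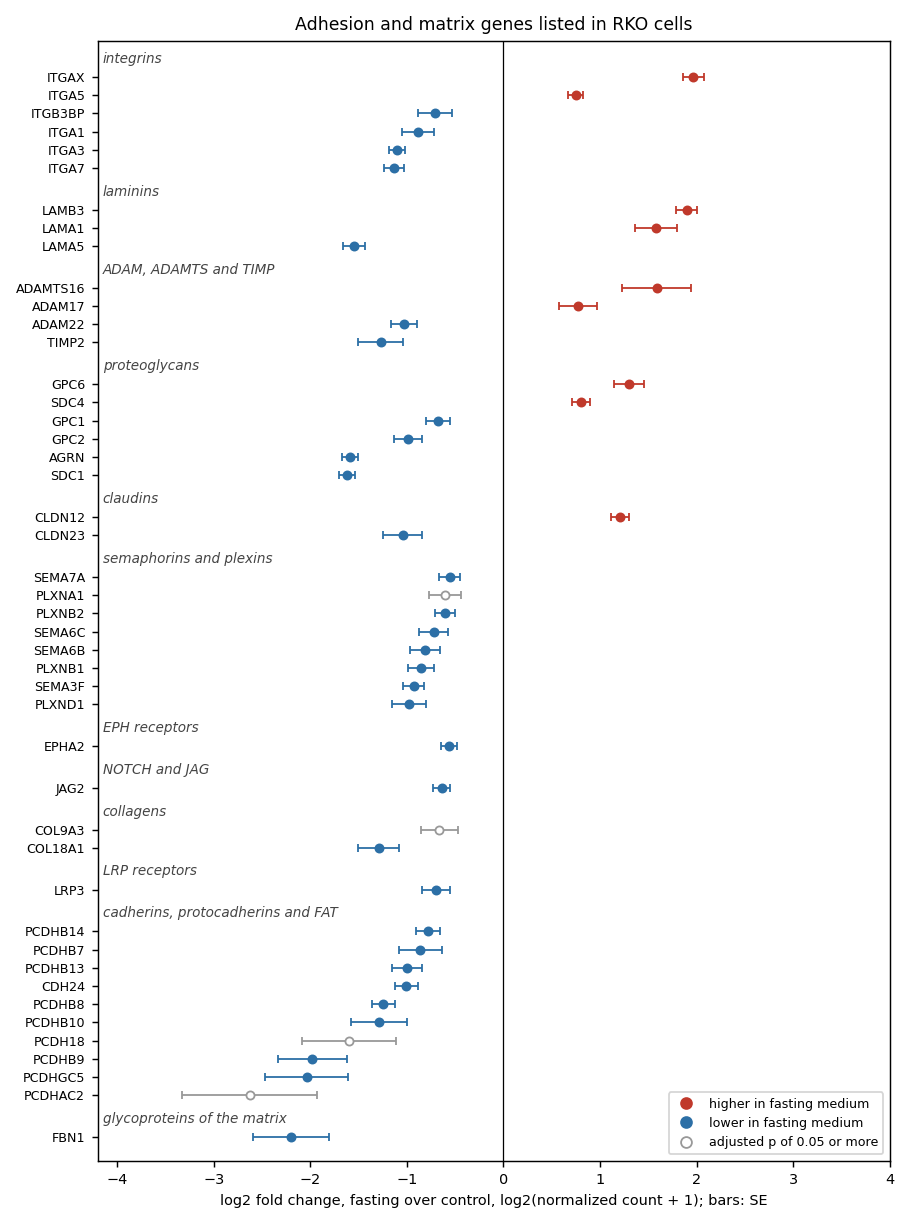
Log2 fold change, fasting over control, of 45 adhesion and matrix genes with standard errors, grouped by family (3 libraries a group, limma). Open circles did not pass. ITGAX at 1.96 and LAMB3 at 1.90 lie farthest to the right, while every cadherin, protocadherin, semaphorin and plexin lies left of 0.

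Laminins are trimers of an alpha, a beta and a gamma chain, and 4 chains were listed of 12 annotated: 3 rose and 1 fell. LAMB3, the beta chain of laminin-332 of epithelial basement membranes, had 66313, 64388 and 57586 normalized counts in fasting medium, against 16064, 15856 and 18666 in control medium. It was the most abundant of these genes per length under both conditions, at 14579 normalized counts per kilobase of its longest transcript under fasting and 3917 in control medium. The log2 fold change was 1.90 ± 0.11 (SE, n = 3 each), a 3.73-fold rise (limma adjusted p = 5.02e-05).

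LAMA1, the alpha chain of laminin-111 of early embryonic basement membranes, had 2882, 2474 and 1497 normalized counts under fasting and 717, 715 and 782 in control medium. The lowest fasting library was replicate 3. LAMA1 rose by 1.58 ± 0.22 on the log2 scale (limma adjusted p = 0.00218), and by 1.86 without that library. An antisense gene, AP002409.1, covers 10.3% of the exonic bases of LAMA1, and counting is not stated to have used the strand. LAMA5, the widespread alpha chain of laminin-511 and laminin-521, moved the other way, with 984, 1015 and 817 normalized counts under fasting against 2598, 2633 and 2978 in control medium. It fell by 1.55 ± 0.11 on the log2 scale (limma adjusted p = 1.07e-04). Per kilobase, LAMA1 stood at 237 under fasting and 76.4 in control medium, and LAMA5 at 82.1 under fasting and 239 in control medium, so LAMA1 was the higher of these alpha chains under fasting and the lower in control medium.

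**Figure D2:**
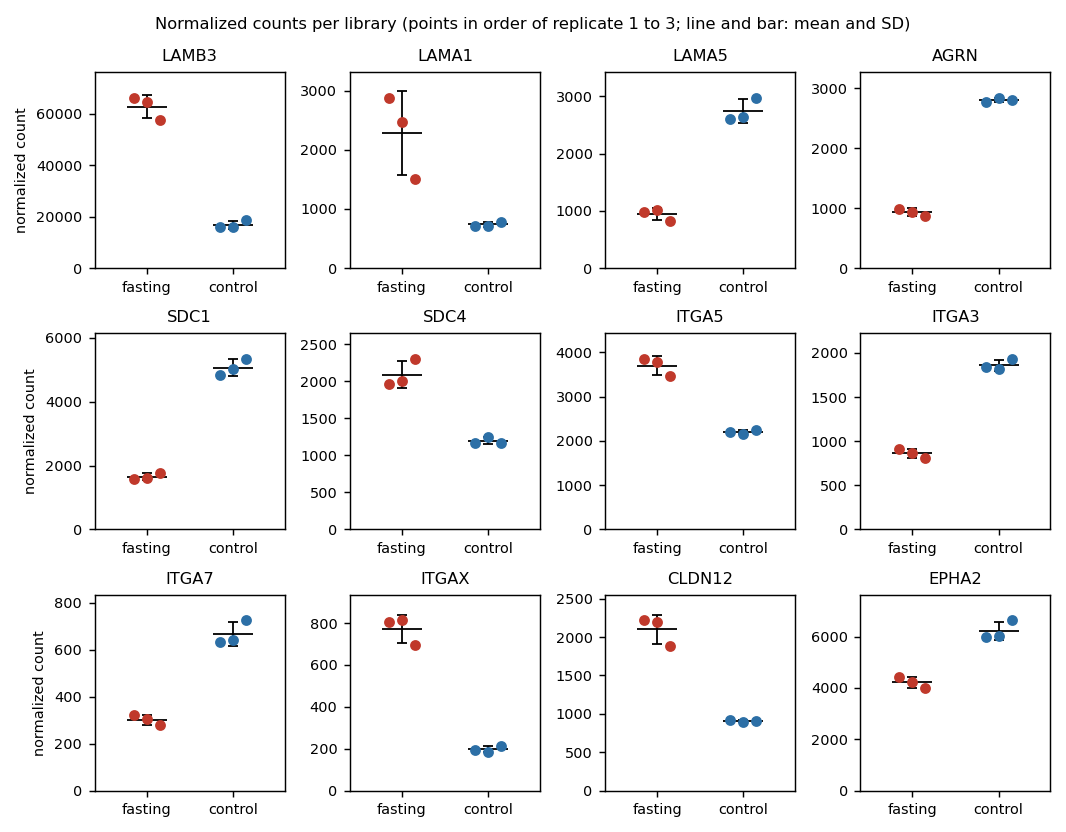
Normalized counts of 12 selected genes in each library (linear axis from 0), 3 fasting libraries to the left of 3 control libraries, with the mean and SD as line and bar. LAMB3 lay at 57586 to 66313 under fasting against 15856 to 18666 in control medium, and LAMA5 at 817 to 1015 under fasting against 2598 to 2978 in control medium.

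The 250 bases before the start of LAMB3 are shown because LAMB3 was the only one of 33 adhesion and matrix genes with a RefSeq promoter entry to hold the AP-1 word TGANTCA there, on either strand. The word stands in capitals, at -67 from the start. The same word is found in 8.06% of the promoters of 27305 genes, and a match is a description of letters, not a binding site.
LAMB3, GRCh38.p14 chr1:209651375-209651624, minus strand: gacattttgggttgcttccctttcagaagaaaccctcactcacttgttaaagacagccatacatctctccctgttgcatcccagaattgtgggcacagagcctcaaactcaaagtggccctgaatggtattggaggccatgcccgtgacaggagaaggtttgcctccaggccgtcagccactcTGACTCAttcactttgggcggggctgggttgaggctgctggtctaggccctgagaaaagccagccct

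Other words were searched in the same windows, each on both strands. The hypoxia word ACGTG stood in 4 windows (ADAM17, GPC6, LRP3 and SEMA7A), or 12.1% against 21.7% of all genes. The heat shock word GAANNTTC stood in 2 windows (PCDHB14 and SEMA7A), or 6.06% against 7.05%. The ATF4 and CHOP word TGATGNAA and the E2F word TTTCGCG stood in 0 of the 33 windows, and in 3.89% and 1.35% of all genes.

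Heparan sulfate proteoglycans bind growth factors and matrix at the cell surface, and 6 of 12 annotated syndecans, glypicans, agrin and perlecan were listed: 4 fell and 2 rose. SDC1, the main syndecan of epithelial cells, had 1570, 1608 and 1771 normalized counts in fasting medium, against 4833, 5025 and 5343 in control medium. This was a 3.07-fold fall (log2 fold change -1.62 ± 0.09, limma adjusted p = 3.35e-05). AGRN, the basement membrane proteoglycan agrin, had 994, 934 and 864 normalized counts under fasting and 2765, 2845 and 2795 in control medium, and fell by 1.59 ± 0.08 on the log2 scale. Its limma adjusted p of 3.22e-05 was the smallest of the 46 genes. SDC4, the syndecan of focal adhesions, had 1969, 1999 and 2302 normalized counts under fasting, above 1170, 1248 and 1169 in control medium. It rose 1.74-fold (log2 fold change 0.80 ± 0.09, limma adjusted p = 8.49e-04). Per kilobase, SDC4 stood at 799.8 under fasting and 458 in control medium, and SDC1 at 501 under fasting and 1540 in control medium, so SDC4 was the higher of the pair under fasting and the lower in control medium.

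Glypicans, which are held to the membrane by a lipid anchor, split in the same manner. GPC6 had 99.0, 103 and 79.8 normalized counts under fasting against 38.5, 37.7 and 35.6 in control medium, a rise of 1.30 ± 0.16 on the log2 scale (limma adjusted p = 0.00108). GPC1 had 1330, 1313 and 1734 normalized counts under fasting against 2173, 2326 and 2478 in control medium, and GPC2 had 52.0, 42.9 and 48.1 under fasting against 99.6, 88.8 and 97.4 in control medium. Both fell, with log2 fold changes of -0.68 and -0.99 (limma adjusted p = 0.00789 for GPC1 and 0.00270 for GPC2). Without control replicate 3, GPC1 missed the threshold (limma adjusted p = 0.0511).

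Of the integrins, which pair an alpha with a beta chain, 5 alpha chains and no beta chain were listed: 2 rose and 3 fell. ITGAX, the alpha chain of CD11c/CD18, a receptor best known from myeloid and dendritic cells, had 805, 814 and 696 normalized counts in fasting medium. In control medium ITGAX had 194, 184 and 212. The rise was 3.9-fold (log2 fold change 1.96 ± 0.11, limma adjusted p = 4.08e-05). Its beta partner ITGB2 and the other leukocyte markers of the fixed list were not among the listed genes. ITGA5, the alpha chain of the fibronectin receptor, had 3857, 3788 and 3465 normalized counts under fasting and 2200, 2160 and 2252 in control medium, and rose by 0.75 ± 0.08 on the log2 scale (limma adjusted p = 6.37e-04). With scaling to total reads the log2 fold change of ITGA5 was 0.28 and its adjusted p by edgeR was 0.292. ITGA5 had the highest level per kilobase of the listed integrins, at 833 under fasting and 496 in control medium.

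ITGA3 and ITGA7, alpha chains of laminin receptors, both fell. ITGA3 had 914, 869 and 811 normalized counts under fasting against 1837, 1812 and 1933 in control medium (log2 fold change -1.11 ± 0.08, limma adjusted p = 1.40e-04). ITGA7 had 324, 303 and 281 under fasting against 632, 640 and 726 in control medium (log2 fold change -1.14 ± 0.10, limma adjusted p = 3.28e-04). ITGA1, the alpha chain of a collagen receptor, had 34.3, 36.6 and 27.5 under fasting against 60.2, 59.7 and 63.2 in control medium (log2 fold change -0.89 ± 0.17, limma adjusted p = 0.00920). The gene PELO lies within ITGA1 on the same strand and shares 2.56% of its exonic bases. PELO moved the other way, by 0.67 on the log2 scale. Without control replicate 3, ITGA1 missed the threshold (limma adjusted p = 0.0581). ITGB3BP, the centromere protein, had 145, 180 and 241 under fasting against 306, 313 and 288 in control medium (log2 fold change -0.71 ± 0.18, limma adjusted p = 0.0431), a call that was lost when any single library other than fasting replicate 3 was left out (limma adjusted p up to 0.167).

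Adaptors between integrins and actin were mostly absent from the table. Of 26 symbols, of which HIC5 and TGFB1I1 name the same gene, 4 were listed: 2 rose, 1 fell and 1 did not pass. PARVA, the actin-binding parvin of the integrin-linked kinase complex, had 545, 524 and 487 normalized counts under fasting against 275, 245 and 241 in control medium (log2 fold change 1.03, limma adjusted p = 4.94e-04). TGFB1I1, a LIM protein of focal adhesions, rose by 1.25 on the log2 scale (limma adjusted p = 0.00248). TLN2, a talin, fell by 1.14 on the log2 scale (limma adjusted p = 0.0232), a call lost without any one control library (limma adjusted p up to 0.112) and with RLE scaling. TNS1 had a log2 fold change of -0.86 (limma adjusted p = 0.153). Without fasting replicate 3 the log2 fold change was -0.81 for TLN2 and -0.50 for TNS1, which then passed (limma adjusted p = 0.00531).

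Of 44 annotated collagens 2 were listed, and of the matrix glycoproteins FBN1 alone. COL18A1, a basement membrane collagen whose end fragment is endostatin, had 31.7, 34.5 and 53.6 normalized counts in fasting medium against 97.6, 92.4 and 100.3 in control medium. It fell by 1.29 ± 0.21 on the log2 scale (limma adjusted p = 0.00460). SLC19A1 on the opposite strand shares 16.4% of the exonic bases of COL18A1 and moved the same way, by -0.86, so reads of this overlap may belong to either gene. COL9A3, a chain of a cartilage collagen, had 514, 605 and 892 normalized counts under fasting against 944, 1094 and 1072 in control medium. Its fasting libraries were widely spread, with replicate 3 near the control level, and the log2 fold change of -0.66 ± 0.19 did not pass (limma adjusted p = 0.0779). Without that library it was -0.89 (limma adjusted p = 1.36e-06). FBN1, the microfibril protein fibrillin-1, had 1.27, 1.05 and 4.13 normalized counts under fasting against 11.8, 14.2 and 10.9 in control medium (log2 fold change -2.2 ± 0.39, limma adjusted p = 0.00724). It rested on 5 reads under fasting and 47 in control medium, a ratio of control over fasting of 6.12 with an exact 95% interval of 2.44 to 19.7. This interval and those given for other low genes cover counting error only.

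Enzymes and chaperones that fold and modify collagen were mostly higher where they were listed. Of 22 such genes, 8 were listed: 6 rose and 2 fell. P4HA2, an alpha subunit of the prolyl hydroxylase of collagen, had 1977, 1980 and 2160 normalized counts under fasting against 666, 704 and 674 in control medium (log2 fold change 1.58, limma adjusted p = 3.02e-05). P4HA1, another alpha subunit, rose by 1.59 on the log2 scale (limma adjusted p = 5.80e-05). SERPINH1, the collagen chaperone HSP47, rose by 1.47 and P4HB, the beta subunit, by 0.98 (limma adjusted p = 1.37e-04 and 1.75e-04). FKBP10, a prolyl isomerase of the endoplasmic reticulum, and PLOD1, a lysyl hydroxylase, rose by 0.57 and 0.55 on the log2 scale, and by 0.10 and 0.07 with scaling to total reads, where they did not pass. COLGALT1, which adds galactose to collagen, fell by 0.82, and PCOLCE, an enhancer of procollagen cleavage, fell by 0.67 on the log2 scale (limma adjusted p = 2.53e-04 and 0.00760).

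Matricellular proteins, which sit in the matrix and signal to cells, had 5 of 25 listed: 3 rose, 1 fell and 1 did not pass. CCN2 had 293, 271 and 316 normalized counts under fasting against 50.3, 43.3 and 46.5 in control medium (log2 fold change 2.63, limma adjusted p = 2.50e-05). THBS1, thrombospondin-1, had 123, 153 and 86.6 under fasting against 5.92, 4.26 and 3.63 in control medium (log2 fold change 4.42, limma adjusted p = 5.60e-05). The control values of THBS1 rest on few reads, so the size of its rise is uncertain. CCN1 rose by 1.5 on the log2 scale (limma adjusted p = 5.98e-05), and LTBP3, which binds latent TGF-beta, fell by 0.67 (limma adjusted p = 0.0157). The LTBP3 call was lost without control replicate 1 or 2 or fasting replicate 1 or 2 (limma adjusted p up to 0.0837), with RLE scaling and with a length trend removed. LTBP1 had a log2 fold change of -0.82 (limma adjusted p = 0.118), and of -0.49 without fasting replicate 3 (limma adjusted p = 0.00116).

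**Figure D3:**
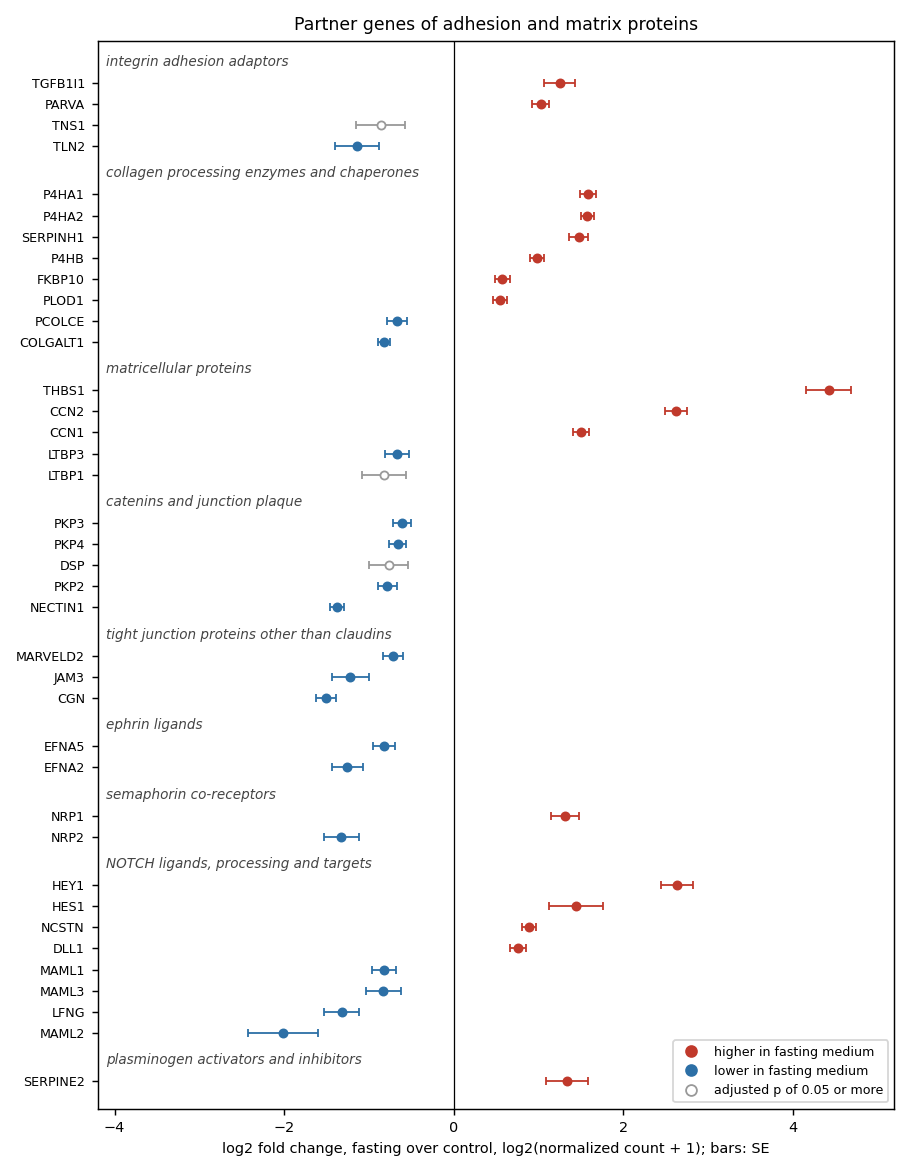
Log2 fold change, fasting over control, of listed partner genes of each list with standard errors (3 libraries a group, limma). THBS1 at 4.42, HEY1 at 2.64 and CCN2 at 2.63 lie farthest to the right, and the plaque, tight junction and ephrin genes all lie left of 0.

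All 10 listed cadherins and protocadherins were lower in the mean under fasting: 8 fell and 2 did not pass, of 93 annotated cadherin, protocadherin and FAT symbols. CDH24, a classical cadherin, had 315, 280 and 366 normalized counts under fasting against 641, 683 and 597 in control medium (log2 fold change -1.0 ± 0.12, limma adjusted p = 0.00116). The other 9 were protocadherins, 8 of which lie in the clustered arrays on chromosome 5, where each beta gene is a single exon with its own promoter and the last exons of the alpha and gamma genes are shared. The listed beta genes were PCDHB7, PCDHB8, PCDHB9, PCDHB10, PCDHB13 and PCDHB14. A stretch before or at the start of each is shown because all 6 fell and the stretches can be laid side by side. Capitals mark the longest word that the 300-base RefSeq windows of these genes share, chosen after the letters were seen. It begins at -67, -2, -76, -43, -43 and -69 from the starts in the order given, all on the plus strand of GRCh38.p14.
PCDHB7, chr5:141172552-141172600: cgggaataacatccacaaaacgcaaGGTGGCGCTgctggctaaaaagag
PCDHB8, chr5:141177763-141177811: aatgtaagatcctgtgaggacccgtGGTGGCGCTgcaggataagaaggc
PCDHB9, chr5:141187060-141187108: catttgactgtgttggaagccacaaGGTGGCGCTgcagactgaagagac
PCDHB10, chr5:141192285-141192333: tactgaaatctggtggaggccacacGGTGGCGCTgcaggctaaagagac
PCDHB13, chr5:141213851-141213899: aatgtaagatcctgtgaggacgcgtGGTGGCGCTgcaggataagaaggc
PCDHB14, chr5:141223249-141223297: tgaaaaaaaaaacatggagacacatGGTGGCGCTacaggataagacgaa

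The word GGTGGCGCT also stood in 7 of the 8 PCDHB windows of genes that were not listed, so it did not separate the genes that fell from the rest of the array. It stood in 0.619% of all RefSeq windows on either strand. The PCDHB8 and PCDHB13 stretches are nearly the same, and the transcripts of these genes also share sequence: 49.3% of the 50-base words of PCDHB8 occur in other genes, and 33.0% occur in PCDHB13. Reads could therefore be split among these genes or lost, and their values are uncertain to that extent. The share of such words was 35.4% in PCDHB10, 28.5% in PCDHB9, 24.2% in PCDHB13, 12.9% in PCDHB14 and 9.61% in PCDHB7.

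PCDHB13 had 262, 250 and 180 normalized counts in fasting medium against 433, 485 and 448 in control medium (log2 fold change -1.0 ± 0.15, limma adjusted p = 0.00357). PCDHB8 had 149, 167 and 132 normalized counts under fasting against 345, 362 and 352 in control medium. Its log2 fold change of -1.24 ± 0.12 had the smallest adjusted p of the listed cadherin family (limma, 4.15e-04). Per kilobase, PCDHB8 was the highest of the listed beta genes, at 54.5 under fasting and 129 in control medium, and PCDHB13 followed at 45.6 under fasting and 90 in control medium. PCDHB14 had 91.4, 109 and 110 normalized counts under fasting against 180, 168 and 186 in control medium (log2 fold change -0.78 ± 0.13, limma adjusted p = 0.00457). These were the beta genes with over 100 normalized counts in control medium. PCDHB7 had 50.8, 29.3 and 33.0 under fasting against 66.1, 65.4 and 70.5 in control medium (log2 fold change -0.86, limma adjusted p = 0.0425). PCDHB10 had 12.7, 22 and 9.63 under fasting against 35.5, 36.2 and 34.9 in control medium (log2 fold change -1.29, limma adjusted p = 0.0226). PCDHB9 had 3.81, 11.5 and 5.50 under fasting against 28.6, 23.4 and 32.0 in control medium (log2 fold change -1.98, limma adjusted p = 0.00804). PCDHB9 rested on 18 reads under fasting and 106 in control medium, a ratio of control over fasting of 3.83 with an exact 95% interval of 2.31 to 6.71. Single libraries decided 3 of these calls: PCDHB9 was lost without control replicate 3 (limma adjusted p = 0.0531), PCDHB10 without any one control library or fasting replicate 1 (up to 0.0981), and PCDHB7 without any one control library or fasting replicate 2 (up to 0.187).

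**Figure D4:**
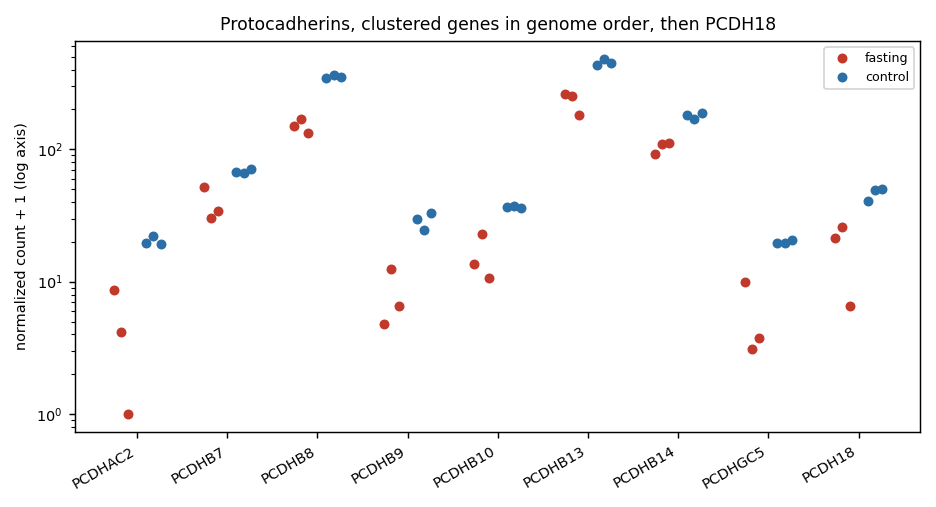
Normalized count + 1 of the listed protocadherins in each library (log axis), fasting to the left of control. PCDHB13 has the highest counts, 180 to 262 under fasting and 433 to 485 in control medium, and PCDHAC2 has 0 in fasting replicate 3.

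The last genes of the alpha and gamma arrays were low. PCDHGC5 had 8.89, 2.09 and 2.75 normalized counts under fasting against 18.7, 18.5 and 19.6 in control medium (log2 fold change -2.04 ± 0.43, limma adjusted p = 0.0166), and missed the threshold without any one control library (limma adjusted p up to 0.0846). It rested on 11 reads under fasting and 72 in control medium, a ratio of control over fasting of 4.26 with an exact 95% interval of 2.24 to 8.91. PCDHAC2 had 7.62, 3.14 and 0 under fasting against 18.7, 21.3 and 18.2 in control medium, and its log2 fold change of -2.63 ± 0.69 did not pass (limma adjusted p = 0.0511). Without fasting replicate 3 it was -1.77 (limma adjusted p = 8.07e-04), and it also passed when fasting replicate 1 was left out, at -3.32. In PCDHAC2 45.4% and in PCDHGC5 43.7% of the exonic bases belong to exons shared with every other gene of the array, so reads there cannot be assigned to either gene. PCDH18, a protocadherin outside the arrays, had 20.3, 25.1 and 5.50 under fasting against 39.4, 48.3 and 49.4 in control medium. Fasting replicate 3 was the low library. The log2 fold change was -1.60 ± 0.48 with it (limma adjusted p = 0.0972) and -0.98 without it (limma adjusted p = 0.00199). It also passed when fasting replicate 2 was left out, at -1.98.

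Claudins went both ways, with 2 listed of 24 annotated. CLDN12, a claudin that lacks the usual PDZ-binding end, had 2220, 2199 and 1882 normalized counts in fasting medium against 914, 892 and 913 in control medium. It rose 2.31-fold (log2 fold change 1.21 ± 0.09, limma adjusted p = 1.42e-04). CLDN23 had 34.3, 35.6 and 50.9 under fasting against 86.8, 93.1 and 69.8 in control medium (log2 fold change -1.04 ± 0.20, limma adjusted p = 0.0113), a call lost without control replicate 1 or 2 (limma adjusted p up to 0.0653). Other junction genes that were listed were lower. Of 14 tight junction genes 4 were listed and all 4 fell, led by CGN, the cytoplasmic linker cingulin, at 133, 116 and 109 under fasting against 350.1, 322 and 345 in control medium (log2 fold change -1.50, limma adjusted p = 1.75e-04). MARVELD2, the tricellular junction protein tricellulin, fell by 0.71 on the log2 scale (limma adjusted p = 0.00523). JAM3, a junctional adhesion molecule, also passed as lower, at a log2 fold change of -1.22. Of 14 catenin and plaque genes 5 were listed, and 4 fell. NECTIN1, an adhesion receptor of adherens junctions, had 699, 743 and 679 under fasting against 1844, 1918 and 1746 in control medium (log2 fold change -1.38, limma adjusted p = 5.62e-05). The plakophilins PKP2, PKP4 and PKP3, desmosomal or junctional armadillo proteins, fell by 0.78, 0.66 and 0.61 on the log2 scale, and PKP3 missed the threshold without control replicate 2 (limma adjusted p = 0.0501). DSP, desmoplakin, had a log2 fold change of -0.77 (limma adjusted p = 0.0944), and of -0.52 without fasting replicate 3 (limma adjusted p = 0.0170).

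Surface proteases and their inhibitors were mixed: of 48 annotated ADAM, ADAMTS and TIMP symbols 4 were listed, of which 2 rose and 2 fell. ADAM17, the sheddase of TNF and of several EGF receptor ligands, had 1433, 1384 and 842 normalized counts under fasting against 739, 650 and 703 in control medium. Fasting replicate 3 was again the low one of its group. ADAM17 rose by 0.77 ± 0.20 on the log2 scale (limma adjusted p = 0.0443), and by 1.02 without that library (limma adjusted p = 3.33e-08). The call was lost when any other single library was left out (limma adjusted p up to 0.176) and with scaling to total reads, where the log2 fold change was 0.35. IAH1 on the opposite strand shares 12.3% of the exonic bases of ADAM17. ADAMTS16, a secreted protease, had 24.1, 20.9 and 11 under fasting against 6.90, 5.68 and 3.63 in control medium (log2 fold change 1.58 ± 0.35, limma adjusted p = 0.0220). It rested on 47 reads under fasting and 20 in control medium, a ratio of 3.61 with an exact 95% interval of 2.10 to 6.43. ADAMTS16 missed the threshold with scaling to total reads (edgeR adjusted p = 0.136), and without control replicate 2 or 3 or fasting replicate 1 or 2 (limma adjusted p up to 0.105). ADAM22, a neuronal family member without protease activity, had 127, 138 and 105 under fasting against 258, 249 and 245 in control medium (log2 fold change -1.03 ± 0.13, limma adjusted p = 0.00156). TIMP2, an inhibitor of metalloproteinases, had 43.2, 36.6 and 23.4 under fasting against 89.7, 79.6 and 77.0 in control medium (log2 fold change -1.27 ± 0.23, limma adjusted p = 0.00820). Without fasting replicate 3 the log2 fold change of TIMP2 was -1.03. Leaving out single libraries gave it a limma adjusted p of up to 0.0482. Of 7 genes of the plasminogen system 2 were listed and both rose. SERPINE2, a serine protease inhibitor that blocks plasminogen activators, had 31.7, 49.2 and 56.4 normalized counts under fasting against 19.7, 15.6 and 16 in control medium (log2 fold change 1.34, limma adjusted p = 0.00866).

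EPHA2, a receptor for A-type ephrins and the only listed EPH receptor of 14 annotated, was the second most abundant of the 46 genes per length. It had 4416, 4228 and 4007 normalized counts in fasting medium against 6001, 6017 and 6641 in control medium, a log2 fold change of -0.56 ± 0.08 (limma adjusted p = 0.00318). Of 8 ephrins 2 were listed, and both fell. EFNA2 had 14.0, 17.8 and 17.9 under fasting against 40.4, 40.5 and 40.7 in control medium (log2 fold change -1.25, limma adjusted p = 0.00252). EFNA5 fell by 0.82 on the log2 scale (limma adjusted p = 0.00373).

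Semaphorins and their plexin receptors, best known for guiding axons and vessels, were lower together: of 29 annotated, 8 were listed, 7 fell and 1 did not pass. None changed by as much as 2-fold. SEMA3F, a secreted semaphorin, had 145, 156 and 154 normalized counts under fasting against 301, 266 and 302 in control medium (log2 fold change -0.93 ± 0.11, limma adjusted p = 9.75e-04). SEMA6B, a transmembrane semaphorin, had 772, 759 and 1122 under fasting against 1507, 1653 and 1423 in control medium (log2 fold change -0.81 ± 0.16, limma adjusted p = 0.0111). SEMA6C had 77.4, 78.5 and 100.4 under fasting against 153, 129 and 140 in control medium, and SEMA7A, which is held by a lipid anchor, had 2182, 2305 and 2684 under fasting against 3313, 3369 and 3865 in control medium. Their log2 fold changes were -0.72 and -0.56 (limma adjusted p = 0.0157 and 0.0106). These 3 calls could each be ended by leaving out 1 library. SEMA6B was lost without control replicate 1 or 2 (limma adjusted p up to 0.0591), SEMA7A without control replicate 3 or fasting replicate 2 (up to 0.0599), and SEMA6C without control replicate 1 or 3 or fasting replicate 1 or 2 (up to 0.0918).

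Among the plexins, PLXND1, a receptor of endothelial semaphorin signals, had 1113, 971 and 661 normalized counts under fasting against 1746, 1709 and 1821 in control medium (log2 fold change -0.97 ± 0.18, limma adjusted p = 0.00807). PLXNB1, the receptor of SEMA4D, had 349, 371 and 271 under fasting against 572, 576 and 628 in control medium (log2 fold change -0.85 ± 0.13, limma adjusted p = 0.00382). PLXNB2 had 2592, 2544 and 2173 under fasting against 3534, 3520 and 4072 in control medium (log2 fold change -0.61 ± 0.10, limma adjusted p = 0.00574). These 3 receptors fell, and all 3 were lowest in fasting replicate 3. Without that library the log2 fold changes of PLXND1, PLXNB1 and PLXNB2 were -0.76, -0.71 and -0.53. Leaving out single libraries gave PLXND1 a limma adjusted p of up to 0.0491. PLXNA1, a receptor that works with neuropilins, had 2289, 2070 and 1508 under fasting against 2755, 2732 and 3350 in control medium, and its log2 fold change of -0.61 ± 0.16 did not pass (limma adjusted p = 0.0564). Without fasting replicate 3 it was -0.43 (limma adjusted p = 0.00106), and it also passed when fasting replicate 1 was left out, at -0.73. The neuropilins, co-receptors of secreted semaphorins and of VEGF, moved in opposite directions. NRP1 had 1916, 1851 and 1246 under fasting against 638, 645 and 701 in control medium (log2 fold change 1.31, limma adjusted p = 0.00134). NRP2 had 43.2, 55.4 and 31.6 under fasting against 108, 108 and 106 in control medium (log2 fold change -1.32, limma adjusted p = 0.00379).

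**Figure D5:**
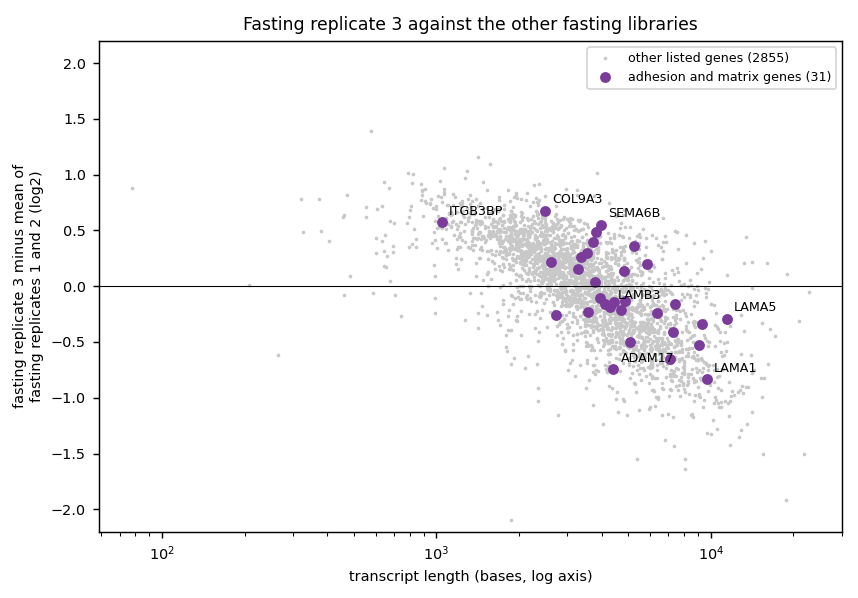
Deviation of fasting replicate 3 from the mean of the other fasting libraries (log2) against the length of the longest transcript (log axis), for listed genes and for the adhesion and matrix genes whose higher group averaged 100 normalized counts or more. The points fall with length, with a Spearman rho of -0.72 over 2886 listed genes and -0.65 over 31 adhesion and matrix genes.

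The length pattern of fasting replicate 3 ran through these families. Over the 31 genes at that level, rho was -0.65, and over all 46 it was -0.37, as a description. The plexins had a median length of 7201 bases and a median deviation of -0.47 on the log2 scale in that library, and the semaphorins had a median length of 3894 bases and a median deviation of 0.31. Without fasting replicate 3, 36 adhesion and matrix genes fell and 10 rose. Over all listed genes, 1747 fell and 1762 rose in that setting. In another setting a length trend relative to the control mean was removed from every library. This also takes out a length trend between the groups, not only that of fasting replicate 3. Of these genes 28 then fell and 10 rose, and of all listed genes 1446 fell and 1541 rose. COL18A1, JAG2, FBN1, PLXNB2, SEMA6C and ITGA1 no longer passed, and PCDHAC2 and COL9A3 did. COL18A1, JAG2, FBN1 and SEMA6C were not low in fasting replicate 3, with deviations of 0.68, 0.20, 1.25 and 0.36. With the length trend removed, PLXNA1 had a log2 fold change of -0.04.

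JAG2, a ligand of NOTCH receptors, was the only listed gene of the 6 annotated NOTCH and JAG genes. It had 1531, 1575 and 1786 normalized counts in fasting medium against 2476, 2479 and 2645 in control medium, a log2 fold change of -0.64 ± 0.09 (limma adjusted p = 0.00219). Of 25 other genes of the pathway 9 were listed: 5 rose and 4 fell. HEY1, a transcriptional target, had 171, 116 and 171 under fasting against 22.7, 22 and 25.4 in control medium (log2 fold change 2.64, limma adjusted p = 1.22e-04). HES1, another target, rose by 1.44 (limma adjusted p = 0.0216; 0.0887 by edgeR with scaling to total reads), a call also lost without control replicate 2 or 3 or fasting replicate 2 (limma adjusted p up to 0.108). NCSTN, the nicastrin subunit of gamma-secretase, rose by 0.89 (limma adjusted p = 3.31e-04). The ligand DLL1 rose by 0.76 on the log2 scale, and did not pass with scaling to total reads, at 0.28. LFNG, a glycosyltransferase that modifies NOTCH receptors, fell by 1.32 (limma adjusted p = 0.00339). The co-activators MAML1, MAML2 and MAML3 fell by 0.82, 2.01 and 0.83 on the log2 scale (limma adjusted p = 0.00598, 0.0148 and 0.0337). Without fasting replicate 3 their log2 fold changes were -0.65, -1.50 and -0.60. MAML2 was low, at 14.0, 13.6 and 4.13 normalized counts under fasting against 34.5, 42.6 and 46.5 in control medium. MAML2 missed the threshold without control replicate 2 or 3 (limma adjusted p up to 0.0836). MAML3 missed it without any one control library or fasting replicate 2 (up to 0.137), with RLE scaling, and with a length trend removed, where its log2 fold change was -0.39.

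LRP3, a member of the LDL receptor family and the only one of 12 annotated LRP symbols that was listed, had 1229, 1238 and 1723 normalized counts under fasting against 2180, 2438 and 2094 in control medium. Fasting replicate 3 was the highest of the fasting libraries. The log2 fold change of LRP3 was -0.69 ± 0.14 (limma adjusted p = 0.0150). The call was lost without any one library other than fasting replicate 3 (limma adjusted p up to 0.0787).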

How the data were processed

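RNA was sequenced from 6 RKO samples. Groups came from each sample's treatment label, since the shared protocol text gives the low-serum medium for all. Drug treatments named for the series are not analysed here. The labels do not say whether samples of a group were grown separately, so the p-values reflect spread between samples that may be technical. Per the labels' protocols, libraries were made with a strand-specific kit. DESeq 1.10.1, HTSeq 0.6.1 and UMI-tools 1.0.0 appear in the submitters' processing notes. The aligner, build, annotation and strand setting were not given in the sources used here.

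The authors deposited 1 table of genes they had called. Per the values as deposited, its sample columns hold a signal that the authors made by dividing gene reads by a size factor per library (normalized counts). Multiplied back, 100.0% of values came out whole within 0.01 read. The deposited table also gives the authors' log2 fold changes, p-values and adjusted p-values, used here only to count the genes they tested. Log2(normalized count + 1) was fitted with limma 3.58.1 in R 4.3.3 (trend, empirical Bayes) on all 3511 genes, with Benjamini-Hochberg adjustment over 29845 genes. Genes outside the table entered that adjustment at the largest possible p. The test was two-sided, and an exact permutation test of 3 against 3 cannot go below 0.1. The same code was tested on simulated data, without an outlying library, a length trend or the adjustment over all genes the authors tested. That test does not cover the pattern of fasting replicate 3. Alternatives were edgeR 4.0.16 on the recovered reads, DESeq2 1.42.0, other scalings, pseudocounts and filters, a replicate block, a length correction and leaving out each library. Lengths and exon overlaps came from GENCODE v29, promoters and protein-coding symbols from RefSeq; 33 of the 46 genes had a promoter entry. The members and lists were chosen with earlier results of these data known. Members are given with their values, and of each other list the genes with the smallest adjusted p in each direction and most others listed. A few genes that entered the counts are not reported here.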

Additional observations from a re-analysis of the deposited data

How the results depend on the processing

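Under 18 alternatives no adhesion or matrix gene changed direction. Leaving out a library could not have reversed a gene, because the fasting and control libraries did not overlap in any listed gene. The count that rose was 10 in the analysis reported and 8 to 10 when single libraries were left out. The count that fell was 32, with a range of 22 without control replicate 3 to 36 without fasting replicate 3. Over all listed genes, 1464 rose and 1160 fell without control replicate 3. Without fasting replicate 3, 1762 rose and 1747 fell. Scaling to total reads gave 7 higher, losing ITGA5, ADAMTS16 and ADAM17, and 36 lower. RLE scaling gave 25 lower, losing LRP3, ITGB3BP, PLXNB2, PCDHB10, SEMA7A, SEMA6C and PCDHB7. DESeq2 gave 36 lower, adjustment over the listed genes alone 36, edgeR with the authors' size factors 34, and a pseudocount of 10 also 34. Of all 3511 listed genes, DESeq2 called 1751 higher and 1731 lower, and adjustment over the listed genes alone 1764 and 1747. Passing in these settings therefore does not set a gene apart. A pseudocount of 10 gave 1734 higher and 1591 lower. Of the 42 genes called, 28 stayed past the threshold whichever library was left out, and 23 did so in every alternative. The matching share of all listed genes was not computed, so these counts do not set the adhesion and matrix genes apart. Over all listed genes, scaling to total reads gave 879 higher and 1734 lower, against 1745 and 1567 as reported, and edgeR on the recovered reads with the authors' size factors gave 1752 and 1607. Same-numbered fasting and control samples hardly deviated together (correlations of 0.031, 0.032 and 0.084), and fasting replicate 2 correlated best with control replicate 1. The numbers are therefore not taken to pair samples. With the replicate number as a block, 10 rose and 32 fell; ITGB3BP and PCDHB7 no longer passed, while PCDHAC2 and COL9A3 did. HES1 among the partner genes also no longer passed with the block. Of 38 partner genes called, 26 stayed past the threshold in every alternative, and none changed direction. The limits given above for the adhesion and matrix genes hold for these counts too. Counts over small families and partner lists moved in 49 of 558 values. Genes with under 30 reads in one group, such as FBN1 and PCDHB9, are limited by depth.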
